A study of Mus musculus with 6 samples.

Results

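The Rab genes are the largest branch of the Ras superfamily of small GTPases, and their proteins direct membrane traffic between organelles. Members were all protein-coding genes of the mouse annotation GENCODE M21 whose symbol is Rab followed by a number and an optional letter. The rule gave 59 genes out of 55536 gene IDs in the deposited tables, and all 59 had a value in every library. Of these, 40 passed a filter on low values and were tested, and 19 did not pass it.

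The values come from bulk RNA sequencing of RAW264.7 cells. This immortalised line of mouse macrophages can form osteoclasts, which resorb bone, in response to the cytokine RANKL. In 3 libraries the cells had received RANKL at 50 ng/mL with 4 µM etelcalcetide, a peptide agonist of the calcium-sensing receptor. In the other 3 libraries the cells had received RANKL at 50 ng/mL without etelcalcetide. Exposure lasted 5 days in both groups by the series design, but 5, 6 and 7 days in replicates 1, 2 and 3 of each group by the labels of the samples. All 6 libraries share RANKL and the single cell line, no library without RANKL was analysed here, and nothing in the labels says that replicates came from separate cultures, so the p-values measure the spread between these libraries, which may be technical.

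A Rab protein switches between a GDP-bound and a GTP-bound form. Exchange factors load GTP and GTPase-activating proteins end that state, and in between the Rab recruits effectors such as tethers, motors and sorting adaptors to one kind of membrane. The membrane anchor is a pair of geranylgeranyl groups, or a single one in some members, added to cysteines at the end of the chain, and GDP dissociation inhibitors lift the inactive protein off the membrane again. In osteoclasts, Rab-dependent traffic of late endosomes and lysosomes builds the ruffled border, the membrane through which acid and proteases reach the bone.

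Rab15, which acts in sorting and recycling of endosomes, stood far apart from every other tested member, and its nearest relatives are Rab10, Rab8b and Rab8a. The last 10 codons of each coding sequence (GENCODE M21) are shown because they hold the prenylation site on which all Rab proteins depend; cysteine codons are in capitals. Rab15 and Rab10 end in cysteine codons, whereas Rab8b and Rab8a each have a single one further in.
Rab15: ccagcaaactcttcaaagaccTGCtggTGC
Rab10: ggcgtgacgggctggaagagcaagTGCTGC
Rab8b: aagaccagtttcttccgcTGTtctctgctt
Rab8a: aggaccagcttcttccggTGCagtctcctg

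By translated coding sequence, Rab15 was 51.5% identical to Rab10, 49.3% to Rab8b, 48.3% to Rab8a and 48.0% to Rab13, as a share of the shorter protein. No run of 50 bases in the Rab15 transcripts was shared with another gene, and none of its exon length overlapped an exon of another gene. Rab15 (ENSMUSG00000021062) lies on the minus strand of chromosome 12, from 76797960 to 76822908 on GRCm38. RefSeq gives it 4 start sites. The windows of 250 bases before to 50 after the first and the third of them follow, with motif letters in capitals. The first is shown as the start farthest upstream and the third because it held the most motif matches of the 4, a choice made after the search; the gene-level values cannot tell which start the RANKL cells used. The motifs searched on both strands were the NFAT core GGAAA, the AP-1 motif TGANTCA, the E-box CACGTG and the M-box TCANGTG.
Rab15 start 1 (GRCm38.p6, chr12:76822475-76822774, minus strand): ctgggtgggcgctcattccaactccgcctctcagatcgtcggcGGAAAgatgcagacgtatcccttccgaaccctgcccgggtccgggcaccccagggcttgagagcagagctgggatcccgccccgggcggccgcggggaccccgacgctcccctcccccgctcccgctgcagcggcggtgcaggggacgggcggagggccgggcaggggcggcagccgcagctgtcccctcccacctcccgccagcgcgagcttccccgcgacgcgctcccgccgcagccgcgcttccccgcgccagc
Rab15 start 3 (GRCm38.p6, chr12:76818325-76818624, minus strand): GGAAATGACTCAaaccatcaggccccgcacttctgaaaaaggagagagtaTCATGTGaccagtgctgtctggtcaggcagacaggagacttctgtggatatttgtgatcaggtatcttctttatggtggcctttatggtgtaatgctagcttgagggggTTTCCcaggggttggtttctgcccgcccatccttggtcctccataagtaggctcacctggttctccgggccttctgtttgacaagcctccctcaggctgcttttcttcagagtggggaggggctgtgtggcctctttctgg

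The first window had a GC content of 76.3% and 1 NFAT core match. The second, not shown, had 1 NFAT core match and the fourth 2, with no match of the other motifs. The third had 4 matches: an NFAT core at -250, an AP-1 motif directly after it at -245, an M-box at -200 and, on the other strand, a second NFAT core at -91. Positions are those of the first base of a match, counted from the start site, and an E-box with a T before it is also an M-box. These motifs are common: of 32544 promoter windows of the same length, 61.5% held the NFAT core, 7.79% the AP-1 motif, 7.17% the E-box and 14.3% the M-box. Of the 48 Rab genes with a window, some with several, 32 held the NFAT core in at least 1 of them, 3 the AP-1 motif, 6 the E-box and 11 the M-box. These are letter matches only, and no binding was measured.

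The libraries held 15425298, 13742913 and 16264432 reads for RANKL plus etelcalcetide and 15259425, 15877596 and 14530043 for RANKL, recovered from the FPKM values (fragments scaled by exon length and library total). One read on 1 kb of exon was worth 0.0615 to 0.0728 FPKM. All 7 macrophage markers looked up had at least 0.5 FPKM in every library, and they summed to 2965 to 3122 FPKM in RANKL plus etelcalcetide and to 2640 to 2792 FPKM in RANKL, with 3 of the 7 higher and 0 lower by limma. The 8 osteoclast markers summed to 49.7 to 51.2 FPKM in the RANKL plus etelcalcetide libraries and to 259 to 365 FPKM in the RANKL libraries, and 6 of the 7 tested were lower. Markers of bone-forming cells and fibroblasts summed to at most 0.573 FPKM in any library and those of lymphocytes to at most 0.211 FPKM, with Col1a2, Col3a1, Cd3e and Ncr1 at 0 reads. Those of epithelium and endothelium summed to 0.029 to 0.0984 FPKM with etelcalcetide and to 0.489 to 0.751 FPKM without, with Krt8 at 0. In bulk RNA, fewer cells of a type and less RNA per cell cannot be told apart.

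Among the 40 tested Rab genes, 17 were higher and 8 were lower in RANKL plus etelcalcetide than in RANKL, and 15 did not pass the test. The test was limma on log2(scaled FPKM + 0.1), with Benjamini-Hochberg adjustment over all 11120 tested genes and a threshold of 0.05. Over all tested genes 53.0% passed, 26.0% higher and 27.0% lower, against 62.5% of the Rab genes, 42.5% higher and 20% lower. With library totals alone in place of scaling factors, 18 Rab genes were higher and 6 lower, and 61.0% of all called genes were higher in place of 49.1%. The median log2 fold change was 0.16 over the tested Rab genes and -0.01 over all tested genes. After scaling, the groups did not overlap for 29 of the 40, with 18 above and 11 below, and for 61.9% of all tested genes. Rab15 passed the filter through the RANKL libraries alone, and Rab2b reached its minimum in 3 libraries with etelcalcetide and 2 without, so these counts do not describe all 59.

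**Figure D1:**
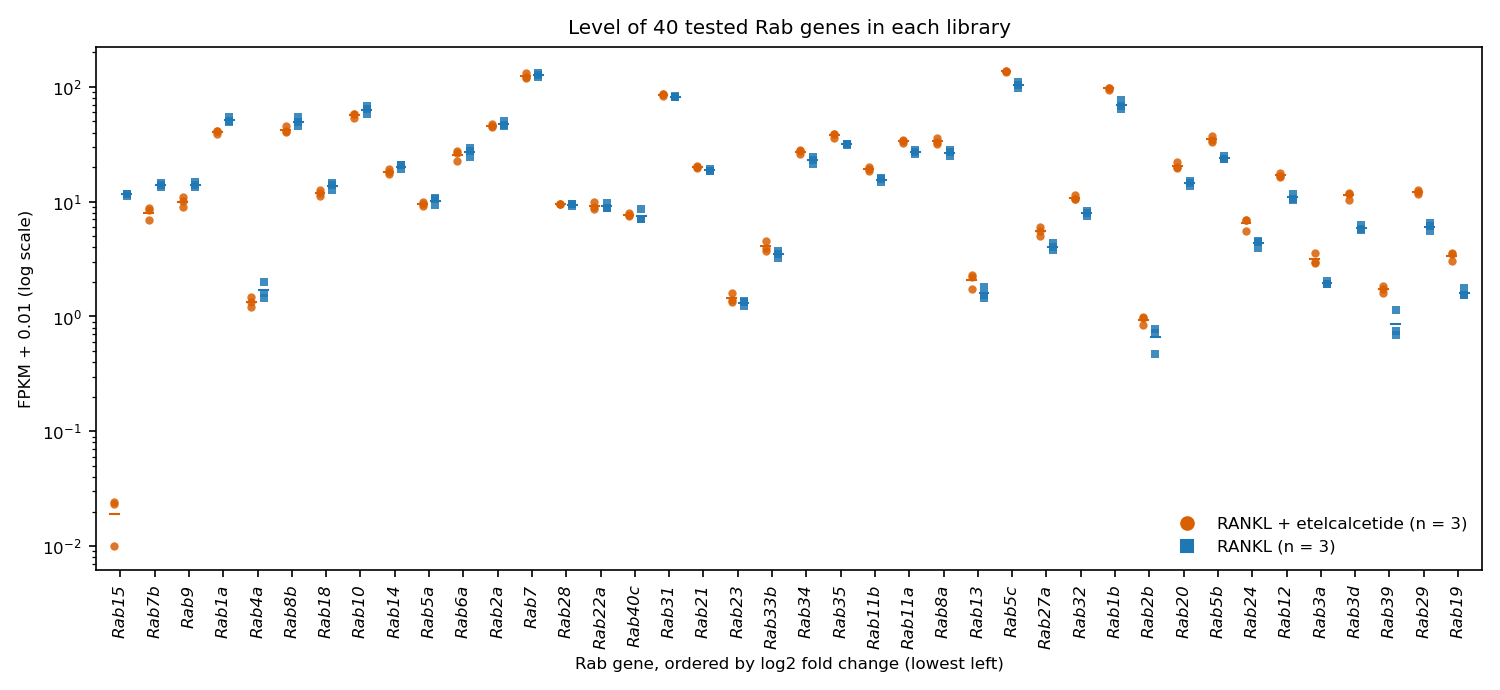
FPKM plus 0.01 on a log axis in each library of RANKL plus etelcalcetide (circles, n = 3) and RANKL (squares, n = 3) for the 40 tested Rab genes, ordered by log2 fold change; lines are means. Rab15 is at 0 to 0.0141 FPKM in the RANKL plus etelcalcetide libraries and at 11.1 to 11.8 FPKM in the RANKL libraries, while the log2 fold changes of the other 39 genes lie between -0.89 and 0.95.

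Rab15 was close to absent from the RANKL plus etelcalcetide libraries, at 0.0141, 0 and 0.0133 FPKM, against 11.1, 11.8 and 11.7 FPKM in the RANKL libraries. In reads these are 1, 0 and 1 with etelcalcetide, against 782, 861 and 787 without. All 3 RANKL libraries were high and within 1 FPKM of each other, and no library of the other group came near them. The log2 fold change was -6.78 (SE 0.14, adjusted p = 2.3e-08, limma), a value set by the pseudocount, since it was -3.67 with 1 FPKM and -9.40 with 0.01 FPKM. Summed over the groups and adjusted for depth, the reads were 1279-fold lower with etelcalcetide (95% exact conditional interval 354 to 10563, for counting error only). Rab15 passed the filter only through the RANKL libraries, so it had to differ, and leaving out any RANKL library left it untested. It made up 0.000862% of the summed FPKM of all Rab genes in RANKL plus etelcalcetide and 1.195% in RANKL. As deposited, the osteoclast marker sum was also lower in every RANKL plus etelcalcetide library, and the macrophage marker sum higher. The part of these cell types in the Rab15 result was not tested.

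The near absence of Rab15 reads with etelcalcetide did not extend to the gene that surrounds it. Fntb, which encodes the beta subunit of protein farnesyltransferase, runs on the plus strand across the whole of Rab15. It had 5.12, 4.98 and 4.77 FPKM in RANKL plus etelcalcetide, against 4.85, 5.40 and 5.68 FPKM in RANKL, and it did not pass the test (log2 fold change -0.17, SE 0.09, adjusted p = 0.126, limma). Max, a transcription factor gene 114361 bases beyond Rab15, was lower by a small amount (log2 fold change -0.28, SE 0.06, adjusted p = 0.003, limma), and Gpx2, 2406 bases away on the other side, had no read in any library. These neighbours were picked after the values of Rab15 were known.

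Rab10, Rab8b and Rab8a, which carry vesicles from the Golgi and recycling endosomes to the cell surface, changed little beside Rab15. Rab10 had 57.7, 53.5 and 57.5 FPKM in RANKL plus etelcalcetide, against 67.4, 63.5 and 58.5 FPKM in RANKL, so the groups were close but did not overlap. Rab8b had 40.7, 40.8 and 45.1 FPKM with etelcalcetide and 54.1, 49.4 and 45.6 FPKM without. Rab8a went the other way, at 33.02, 32.0 and 36.1 FPKM with etelcalcetide and 25.1, 26.9 and 27.9 FPKM without. The log2 fold changes were -0.24 for Rab10, -0.31 for Rab8b and 0.26 for Rab8a (adjusted p = 0.0099, 0.00591 and 0.00688, limma). Rab13, another member of this branch, was at 2.07 ± 0.291 FPKM with etelcalcetide and 1.58 ± 0.183 FPKM without (SD, n = 3 each) and did not pass the test (adjusted p = 0.114, limma).

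Within each library, the log2 ratio of Rab15 to Rab10 was -8.98 ± 0.06 in RANKL plus etelcalcetide and -2.44 ± 0.14 in RANKL (SD, n = 3 each), a difference of -6.54. Against Rab8b the difference was -6.47, against Rab8a -7.04 and against Rab13 -7.08. Every RANKL plus etelcalcetide library was below every RANKL library in all 4 ratios. Each had a two-sided exact permutation p of 0.1, the smallest that 3 libraries against 3 can give. Since Rab15 passed the filter only through the RANKL libraries and its low value was known when the ratios were chosen, this separation was given beforehand and the p adds nothing to it. These ratios include the pseudocount of 0.1 FPKM. On depth-adjusted reads the difference to Rab10 was -9.43.

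**Figure D2:**
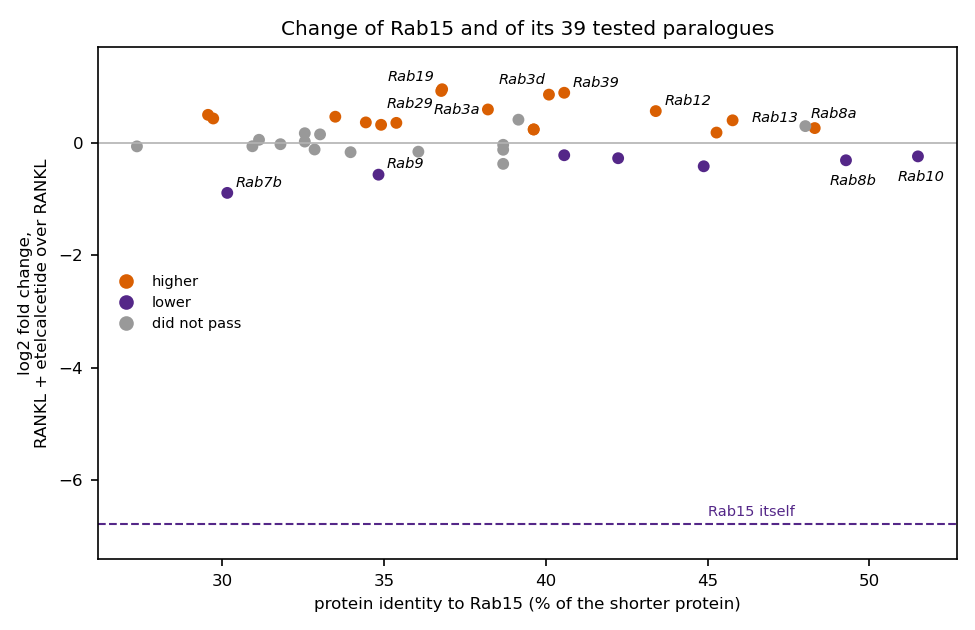
Log2 fold change, RANKL plus etelcalcetide over RANKL, of the 39 tested Rab genes other than Rab15 against their protein identity to Rab15 (percent of the shorter protein), coloured by test result; the dashed line is Rab15 itself. All 39 lie between -0.89 and 0.95, also those nearest to Rab15 in sequence, while Rab15 is at -6.78.

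None of the other 39 tested Rab genes reached an absolute log2 fold change of 1. Over all tested genes 7.02% passed the test with an absolute log2 fold change of at least 1, and 1.12% passed it with a log2 fold change of -2 or lower; of the Rab genes only Rab15 met either rule. A log2 fold change of at least 0.5 was reached by 6 Rab genes that passed as higher (15%, against 12.3% of all tested genes), and one of -0.5 or lower by 3 that passed as lower (7.5%, against 10.6%).

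**Figure D3:**
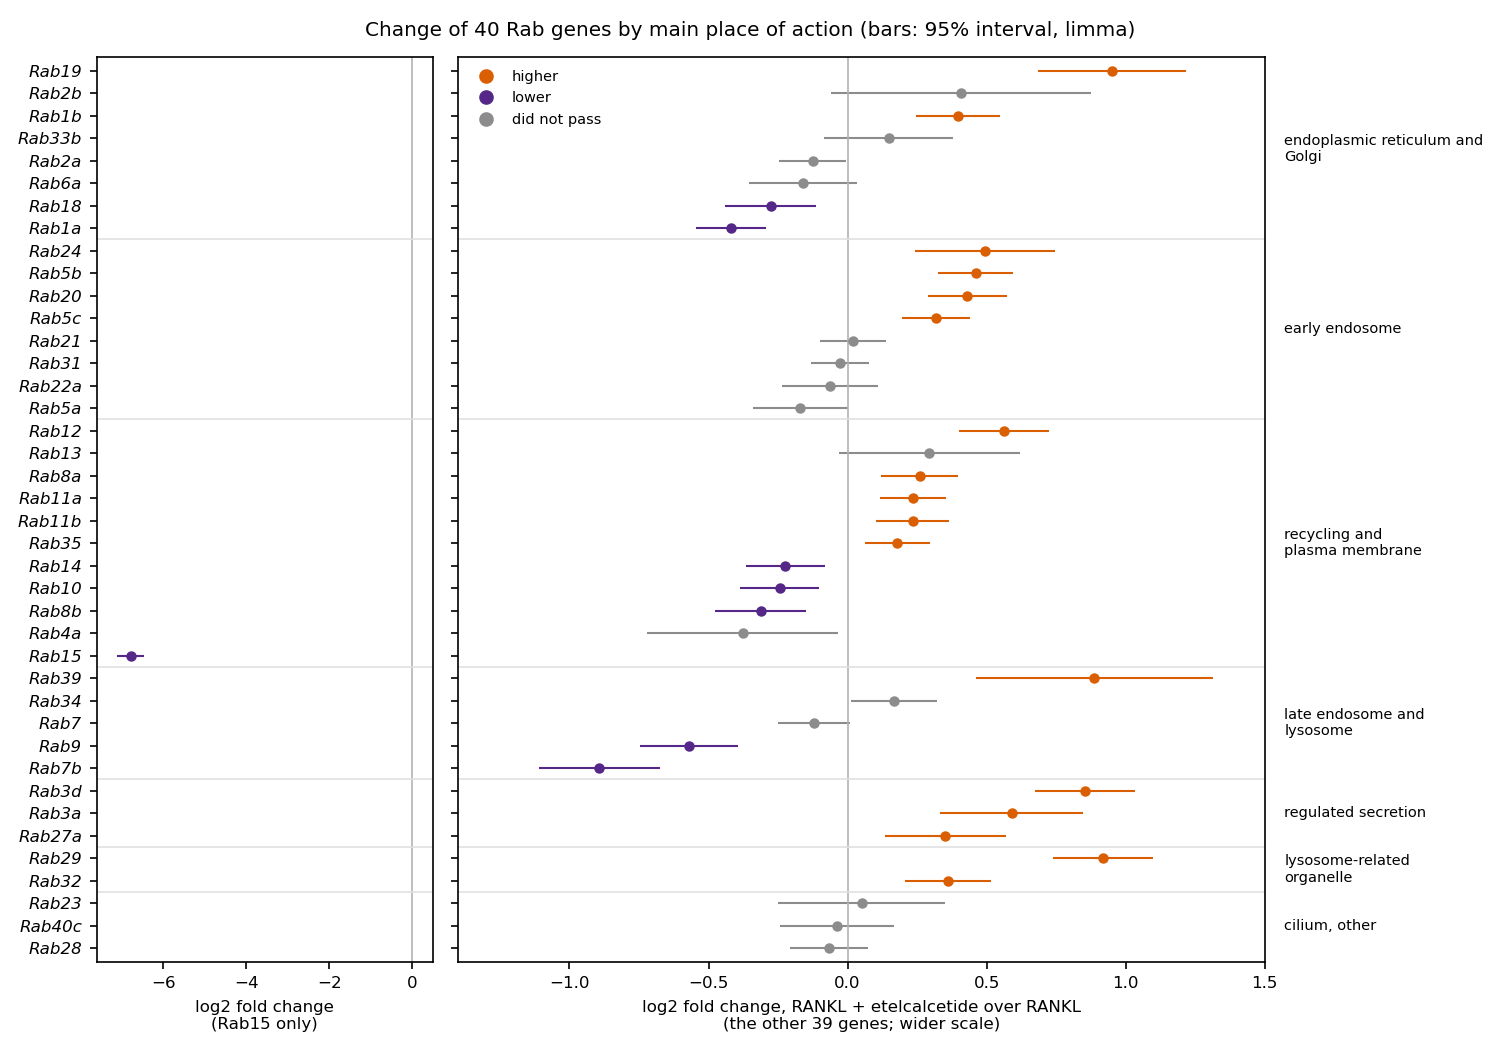
Log2 fold change, RANKL plus etelcalcetide over RANKL, with 95% intervals from limma for the 40 tested Rab genes grouped by main place of action; the left panel has a scale for Rab15 only and the right panel a wider one for the other 39. Intervals of the called genes on the right lie on one side of 0, as the call requires. Those of Rab2a, Rab4a and Rab34, which did not pass, do so too. Rab19 (0.95) and Rab29 (0.92) are highest and Rab7b (-0.89) is lowest on the right.

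Rabs of the endoplasmic reticulum and Golgi split both ways: of 8 tested, 2 were higher, 2 were lower and 4 did not pass. Over all tested genes 26.0% were higher and 27.0% lower. Rab1a and Rab1b, which both act in transport from the endoplasmic reticulum to the Golgi, moved in opposite directions. Rab1a had 41.1, 38.9 and 41.5 FPKM in RANKL plus etelcalcetide, against 54.5, 50.5 and 49.0 FPKM in RANKL (log2 fold change -0.42, SE 0.06, adjusted p = 3e-04, limma). Rab1b had 94.6, 97.5 and 98.0 FPKM with etelcalcetide, against 64.3, 67.6 and 77.0 FPKM without (log2 fold change 0.40, SE 0.07, adjusted p = 0.00116, limma). The groups did not overlap for either gene.

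Rab19, a Golgi-associated member, was higher, with 3.005, 3.51 and 3.59 FPKM in RANKL plus etelcalcetide and 1.54, 1.52 and 1.75 FPKM in RANKL (log2 fold change 0.95, SE 0.12, adjusted p = 0.000207, limma). Its 3 libraries with etelcalcetide all lay above the other 3. Rab18, found on the endoplasmic reticulum and on lipid droplets, was lower at 11.9 ± 0.677 FPKM, against 13.7 ± 0.911 FPKM in RANKL (SD, n = 3 each; log2 fold change -0.28, adjusted p = 0.0107, limma). Rab2a, Rab2b, Rab6a and Rab33b, which act at the Golgi, had log2 fold changes of -0.13, 0.41, -0.16 and 0.15 and did not pass.

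Of 8 tested early endosome Rabs, 4 were higher, 0 were lower and 4 did not pass, against 26.0% higher and 27.0% lower over all tested genes. Rab5a, Rab5b and Rab5c all drive fusion of early endosomes. Rab5b had 33.1, 34.2 and 37.3 FPKM in RANKL plus etelcalcetide, against 23.4, 24.8 and 23.6 FPKM in RANKL (log2 fold change 0.46, SE 0.06, adjusted p = 0.000264, limma). Rab5c had 136.8, 133.7 and 137.9 FPKM with etelcalcetide, against 97.4, 103.2 and 110.0 FPKM without (log2 fold change 0.32, SE 0.05, adjusted p = 0.00118, limma). Rab5a, the lowest of the 3, had 9.95, 9.24 and 9.52 FPKM with etelcalcetide, against 10.5, 10.8 and 9.35 FPKM without. Its groups overlapped and it did not pass (log2 fold change -0.17, adjusted p = 0.089, limma).

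Rab20, which is found on endosomes and phagosomes of macrophages, had 20.1, 19.5 and 22.1 FPKM in RANKL plus etelcalcetide, against 14.4, 13.8 and 15.03 FPKM in RANKL (log2 fold change 0.43, SE 0.06, adjusted p = 0.000521, limma). Rab24, linked to autophagy, was at 6.49 ± 0.785 FPKM with etelcalcetide and 4.32 ± 0.314 FPKM without (SD, n = 3 each; log2 fold change 0.49, adjusted p = 0.0052, limma). Both overlap a gene on the other strand, Rab20 over 25.6% and Rab24 over 62.4% of exon length, and as the sources used here do not give strandedness their reads cannot be told from those of that gene. Rab21, Rab22a and Rab31 had log2 fold changes between -0.06 and 0.02 and did not pass; Rab31, which shuttles between the trans-Golgi network and endosomes, was among the 5 highest members at 85.2 ± 1.601 FPKM with etelcalcetide and 82.2 ± 1.24 FPKM without (SD, n = 3 each).

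Of 11 tested Rabs of recycling and the plasma membrane, 5 were higher, 4 were lower and 2 did not pass. The shares over all tested genes were 26.0% higher and 27.0% lower, and for so few genes the count is a description only. Besides Rab15, the lower ones were Rab10, Rab8b and Rab14. Rab14, which acts between the Golgi and endosomes, was at 18.1, 17.3 and 19.3 FPKM with etelcalcetide and at 20.7, 20.7 and 19.1 FPKM without. Its deposited values overlapped, and separated only after scaling (log2 fold change -0.22, adjusted p = 0.0145, limma); the adjusted p was 0.0904 with library totals alone, 0.064 without etelcalcetide replicate 2 and 0.057 without RANKL replicate 2. Rab10 lost its call with library totals alone, at an adjusted p of 0.0567.

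Rab12, which steers the transferrin receptor towards lysosomes, was the highest gainer of this class, with 16.7, 16.3 and 17.9 FPKM in RANKL plus etelcalcetide, against 10.4, 11.8 and 10.4 FPKM in RANKL (log2 fold change 0.56, SE 0.07, adjusted p = 0.000243, limma). Rab11a and Rab11b, the Rabs of the recycling endosome, were higher to a near equal degree. Rab11a had 34.1, 32.7 and 33.8 FPKM with etelcalcetide, against 27.9, 27.1 and 25.9 FPKM without (log2 fold change 0.24, adjusted p = 0.00502, limma). Rab11b had 19.2, 18.6 and 20.2 FPKM with etelcalcetide, against 14.9, 15.6 and 16.1 FPKM without (log2 fold change 0.23, adjusted p = 0.00828, limma). Rab35, which acts in fast recycling at the cell surface, had the smallest called change, at 37.7 ± 1.93 FPKM with etelcalcetide and 31.5 ± 0.563 FPKM without (SD, n = 3 each; log2 fold change 0.18, adjusted p = 0.0177, limma), and without etelcalcetide replicate 1 or 3 it did not pass (adjusted p = 0.0692 and 0.071). Rab4a, another fast recycling Rab, was at 1.33 ± 0.134 FPKM and 1.67 ± 0.268 FPKM and did not pass (adjusted p = 0.0627, limma).

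Of 5 tested Rabs of late endosomes and lysosomes, 1 was higher, 2 were lower and 2 did not pass. Over all tested genes 26.0% were higher and 27.0% lower. Rab7b, which acts between late endosomes and the Golgi, had the largest decrease after Rab15, with 6.86, 8.45 and 8.72 FPKM in RANKL plus etelcalcetide, against 13.5, 14.7 and 14.1 FPKM in RANKL (log2 fold change -0.89, SE 0.10, adjusted p = 9.5e-05, limma). Rab9, which returns mannose 6-phosphate receptors from late endosomes to the Golgi, had 10.2, 8.94 and 10.9 FPKM with etelcalcetide, against 14.7, 14.0 and 13.5 FPKM without (log2 fold change -0.57, SE 0.08, adjusted p = 0.000367, limma). For both, every library with etelcalcetide lay below every library without it.

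Rab7, the main late endosome Rab and one of the 2 highest members, did not follow them. It had 120.8, 118.9 and 132.1 FPKM in RANKL plus etelcalcetide, against 121.7, 133.2 and 127.8 FPKM in RANKL; the groups overlapped and it did not pass (log2 fold change -0.12, SE 0.06, adjusted p = 0.102, limma). Of its 50-base runs 11.2% are shared with the pseudogenes Rab7-ps1 and Gm9874, so part of its reads could be counted elsewhere. Such shared runs made up 9.80% of Rab5b, 9.47% of Rab11b, 6.20% of Rab9 and 5.37% of Rab8b, and 0% of Rab1a and Rab1b. Rab39, which acts on phagosomes and lysosomes, was higher, with 1.59, 1.71 and 1.82 FPKM with etelcalcetide and 1.12, 0.678 and 0.741 FPKM without (log2 fold change 0.89, SE 0.19, adjusted p = 0.00396, limma). Rab34, which positions lysosomes, had a log2 fold change of 0.17 and did not pass (adjusted p = 0.0648, limma), but passed with library totals alone (0.25, adjusted p = 0.0131) and without RANKL replicate 3 (0.22, adjusted p = 0.0195).

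All 3 tested Rabs of regulated secretion were higher, although 6 of the 9 in that class had too few reads to test. With so few genes, and 26.0% of all tested genes higher, this count is a description only. Rab3d, which marks secretory vesicles and was studied in osteoclasts for its part in the ruffled border, had 10.4, 11.7 and 11.8 FPKM in RANKL plus etelcalcetide, against 5.83, 5.60 and 6.20 FPKM in RANKL (log2 fold change 0.85, SE 0.08, adjusted p = 4e-05, limma). Rab3a, best known from synaptic vesicles, had 3.58, 2.94 and 2.96 FPKM with etelcalcetide, against 1.91, 2.01 and 1.92 FPKM without (log2 fold change 0.59, SE 0.11, adjusted p = 0.00232, limma). In both genes the libraries of the groups stood clear of each other. Rab27a, which docks lysosome-like granules for release, had 5.95, 5.53 and 5.02 FPKM with etelcalcetide, against 4.32, 4.03 and 3.81 FPKM without (log2 fold change 0.35, SE 0.10, adjusted p = 0.0134, limma); without etelcalcetide replicate 1 its adjusted p was 0.0541.

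Both tested Rabs of lysosome-related organelles were higher, as were 26.0% of all tested genes. Rab29, a trans-Golgi and lysosome Rab that binds the kinase LRRK2, had 11.6, 12.1 and 12.7 FPKM in RANKL plus etelcalcetide, against 6.07, 6.48 and 5.58 FPKM in RANKL (log2 fold change 0.92, SE 0.08, adjusted p = 2.7e-05, limma). Rab32, known from melanosome biogenesis and from defence against bacteria in macrophages, had 10.5, 10.5 and 11.4 FPKM with etelcalcetide, against 7.96, 7.54 and 8.36 FPKM without (log2 fold change 0.36, SE 0.07, adjusted p = 0.00216, limma). The 3 other tested members, Rab23 and Rab28 of the cilium and Rab40c, which belongs to a ubiquitin ligase, had log2 fold changes between -0.07 and 0.05 and did not pass.

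Of the 9 Rabs that were listed as studied in osteoclasts, 7 were tested. Among them 4 were higher (Rab3d, Rab11a, Rab11b and Rab27a), 0 were lower, and Rab7, Rab13 and Rab34 did not pass. Over all tested genes 26.0% were higher and 27.0% lower, so for so short a list this is a description only. The 95% interval of the log2 fold change reached down to -0.25 for Rab7, to -0.03 for Rab13 and to 0.01 for Rab34. The remaining members of that list, Rab38 and Rab44, had almost no reads. As deposited, the summed level of this list was 223 ± 7.55 FPKM with etelcalcetide and 204 ± 6.64 FPKM without (SD, n = 3 each). The scaled sum of this list was not computed. For the sum over all Rab genes, scaling took the gap between the groups from 81.4 FPKM to 25.7 FPKM.

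The 19 members that were not tested had at most 165 reads over all 6 libraries. Rab3c, Rab6b, Rab9b, Rab17, Rab27b, Rab36, Rab38 and Rab39b had 0 reads in every library. Rab43 had 95 reads in RANKL plus etelcalcetide and 70 in RANKL, and Rab4b had 24 and 24; both share most of their exon length with an annotated gene on the same strand (75.4% and 65.0%), so their reads cannot be assigned. Rab25, known from epithelial recycling endosomes, had 10 reads with etelcalcetide and 1 without, a ratio of 9.50 (95% exact conditional interval 1.35 to 412). Rab30 had 14 reads with etelcalcetide and 4 without, and Rab40b had 10 and 2. Rab44, a large Rab with a role in osteoclast differentiation, had 5, 1 and 0 reads with etelcalcetide and 0 in each RANKL library. Most of its reads came from etelcalcetide replicate 1, and the groups overlapped. The 95% exact conditional interval of its read ratio had a lower limit of 1.12 and no upper limit. Such an interval pools the libraries and covers counting error only, not the spread between them. Rab37 had 6 reads with etelcalcetide and 0 without, with the same interval. Rab42 had 7 and 1 reads, Rab26 had 4 and 1, Rab3b had 2 and 1, and Rab33a had 1 and 3. At these depths differences between the groups were not detectable beyond counting error for Rab42, Rab26, Rab3b and Rab33a.

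All Rab genes together summed to 1040, 1020 and 1079 FPKM in RANKL plus etelcalcetide and to 958, 974 and 963 FPKM in RANKL. As deposited, these sums did not overlap. After scaling they were 1018 ± 18.02 FPKM with etelcalcetide and 992 ± 13.4 FPKM without (SD, n = 3 each), a gap of 25.7 FPKM, and the scaled sums overlapped. The 5 highest members, Rab5c, Rab7, Rab1b, Rab31 and Rab10, made up 47.6% of the sum with etelcalcetide and 46.2% without. Rab5c had the highest mean level with etelcalcetide and Rab7 without. Rab15 had rank 51 of 59 with etelcalcetide and rank 22 without.

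The balance within a library between members that share a number does not depend on scaling, apart from the pseudocount. The proteins of these pairs are 76.7% to 92.5% identical, except Rab7 and Rab7b at 49.7%, which is below the 51.5% of Rab15 and Rab10. Of 9 such pairs among tested genes, 7 had log2 ratios that did not overlap between the groups; single genes did not overlap in 61.9% of all tested genes, so this count is given as a description only. Each of these had a two-sided exact permutation p of 0.1, the smallest possible with 3 libraries against 3, and 0.129 after Benjamini-Hochberg adjustment over the 9 pairs. The largest differences were in Rab1a to Rab1b and in Rab7 to Rab7b. Rab1a, whose protein is 92.5% identical to Rab1b, made up 29.5 ± 0.88% of the summed level of the pair with etelcalcetide and 42.5 ± 3.50% without (SD, n = 3 each), a difference of -0.82 in log2 ratio. The log2 ratio of Rab7 to Rab7b was 3.94 ± 0.16 with etelcalcetide and 3.17 ± 0.01 without.

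Rab8a, 83.6% identical to Rab8b, made up 44.4 ± 0.423% of its pair with etelcalcetide and 35.0 ± 3.14% without. The log2 ratio of Rab5a was lower against both of its relatives, by a difference of -0.63 to Rab5b and -0.49 to Rab5c, and that of Rab5b to Rab5c was higher by 0.14. The log2 ratio of Rab2a to Rab2b differed by -0.53, but Rab2b shares 64.0% of its exon length with genes on the other strand. By contrast, Rab11a made up 63.5% of its pair with Rab11b in both groups (difference in log2 ratio 0.00083, exact permutation p = 1), and the ratio of Rab3a to Rab3d overlapped between the groups (difference -0.26, exact permutation p = 0.3).

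**Figure D4:**
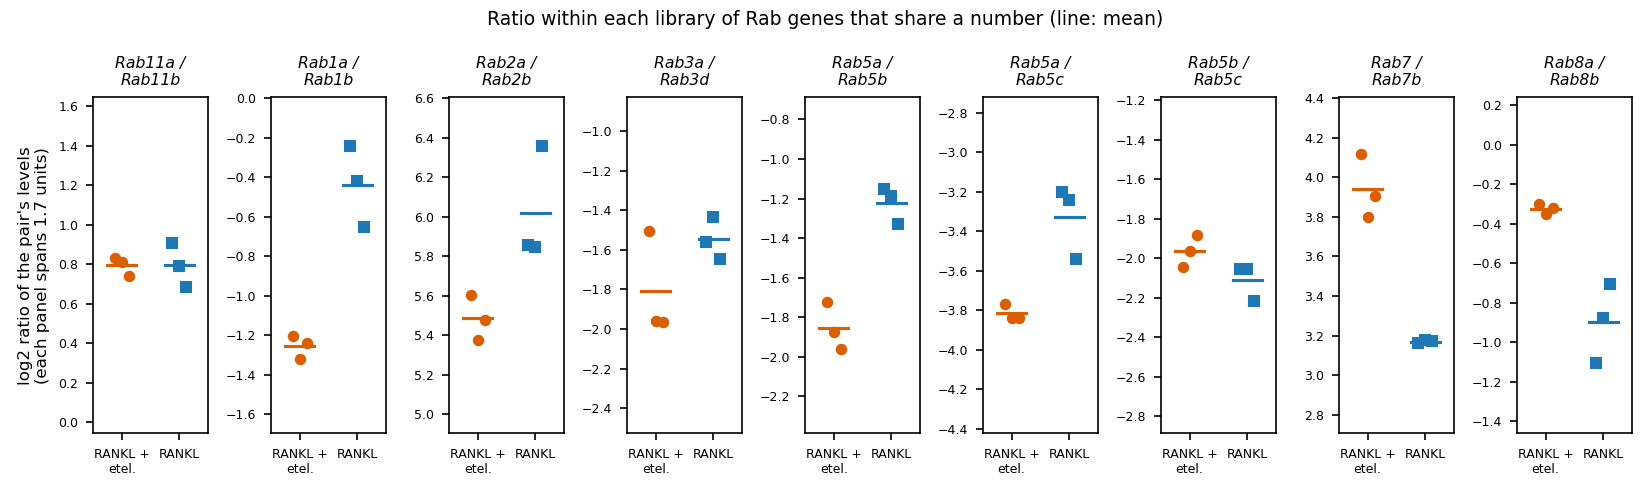
Log2 ratio of the levels of Rab genes that share a number, in each library of RANKL plus etelcalcetide (circles) and RANKL (squares), n = 3 each, with the mean as a line; each panel spans the same number of log2 units but is centred on its own pair. Rab1a to Rab1b differed by -0.82 with no overlap, while Rab11a to Rab11b differed by 0.00083.

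The genes that act on Rab proteins changed in both directions. Of 123 tested genes from 6 lists of regulators, effectors and Rab-like GTPases, 43 were higher, 32 were lower and 48 did not pass, with a median log2 fold change of 0.04. The share that passed was 61.0%, against the 53.0% of all tested genes given above, 26.0% higher and 27.0% lower. With library totals alone in place of scaling factors, 50 of the listed genes were higher and 25 were lower.

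In the list for geranylgeranylation and membrane cycling, 7 of 15 were higher and 3 were lower. The shares over all tested genes were 26.0% higher and 27.0% lower. Rabggta and Rabggtb, the subunits of the enzyme that adds the geranylgeranyl groups to the cysteines shown above, had log2 fold changes of 0.08 and 0.05 and did not pass. Gdi2, a GDP dissociation inhibitor, was at 45.6 ± 2.35 FPKM with etelcalcetide and 55.1 ± 3.99 FPKM without (SD, n = 3 each; log2 fold change -0.35, adjusted p = 0.00208, limma). Rabac1, a Golgi protein that binds prenylated Rabs, was higher (log2 fold change 0.64), as was Yipf3 (0.50), and Icmt, which methylates prenylated cysteines, was higher by 0.36.

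Of 34 tested exchange factors, 12 were higher and 9 were lower, against 26.0% higher and 27.0% lower over all tested genes. Rin1, which activates Rab5, was at 0.587 ± 0.0477 FPKM in RANKL plus etelcalcetide and 1.54 ± 0.233 FPKM in RANKL (SD, n = 3 each; log2 fold change -1.32, adjusted p = 0.000202, limma). Rab3il1, an exchange factor for Rab3a and Rab8, was at 1.36 ± 0.124 FPKM with etelcalcetide and 2.85 ± 0.19 FPKM without (log2 fold change -1.09). Dennd5a, which works with Rab6 and Rab39, was higher (log2 fold change 0.63), and Rab3gap2, a subunit of the complex that activates Rab18 and inactivates Rab3, was lower (-0.46). Of 31 tested GTPase-activating proteins, 12 were higher and 8 were lower, against the same 26.0% and 27.0%. Tbc1d8 had 1.91, 2.60 and 2.98 FPKM with etelcalcetide, against 0.726, 0.793 and 0.67 FPKM without (log2 fold change 1.55, SE 0.18, adjusted p = 0.000133, limma). Tbc1d2b had 5.12, 5.24 and 5.70 FPKM with etelcalcetide, against 12.04, 13.3 and 13.4 FPKM without (log2 fold change -1.33, SE 0.08, adjusted p = 2.3e-06, limma). Sgsm1 and Tbc1d14 were lower as well, with log2 fold changes of -1.04 and -0.75.

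Of 33 tested effectors, 8 were higher and 11 were lower, against 26.0% higher and 27.0% lower over all tested genes. Effectors of Rab11 differed among themselves: Rab11fip3 and Rab11fip1 were higher (log2 fold changes 0.72 and 0.66), and Rab11fip2 was lower (-0.66). Rilpl1, which binds phosphorylated Rab8 and Rab10, was lower (-0.72). Plekhm1, the Rab7 effector whose loss causes osteopetrosis, was at 16.8 ± 1.19 FPKM in RANKL plus etelcalcetide and 19.99 ± 1.42 FPKM in RANKL (SD, n = 3 each; log2 fold change -0.33, adjusted p = 0.00428, limma) and is given here for that role, outside the rule for named genes. Rep15, the effector named for Rab15, had 3, 0 and 4 reads with etelcalcetide and 7, 7 and 5 without, and was not tested.

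All 5 genes of Rab phosphorylation passed the test, 4 of them higher. Over all tested genes 53.0% passed and 26.0% were higher, and for so small a list the count is a description only. Lrrk2, the kinase that phosphorylates Rab8, Rab10, Rab12 and Rab29, had 3.58, 3.38 and 3.50 FPKM in RANKL plus etelcalcetide, against 9.88, 7.52 and 7.18 FPKM in RANKL (log2 fold change -1.27, SE 0.12, adjusted p = 4.2e-05, limma). The phosphatase Ppm1h, which reverses this mark, was higher (log2 fold change 0.39), and so were its relatives Ppm1j (0.77) and Ppm1m (0.48). Lrrk1, which phosphorylates Rab7, was higher by 0.26. None of the 5 tested Rab-like GTPases, Ift22, Ift27, Rabl2, Rabl3 and Rabl6, passed the limma test, with log2 fold changes between -0.06 and 0.29. With library totals alone Ift27 (0.37, adjusted p = 0.0441, limma) and Rabl6 (0.16, adjusted p = 0.0359, limma) passed as higher, and without RANKL replicate 3 Ift27 did (0.40, adjusted p = 0.0281, limma).

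**Figure D5:**
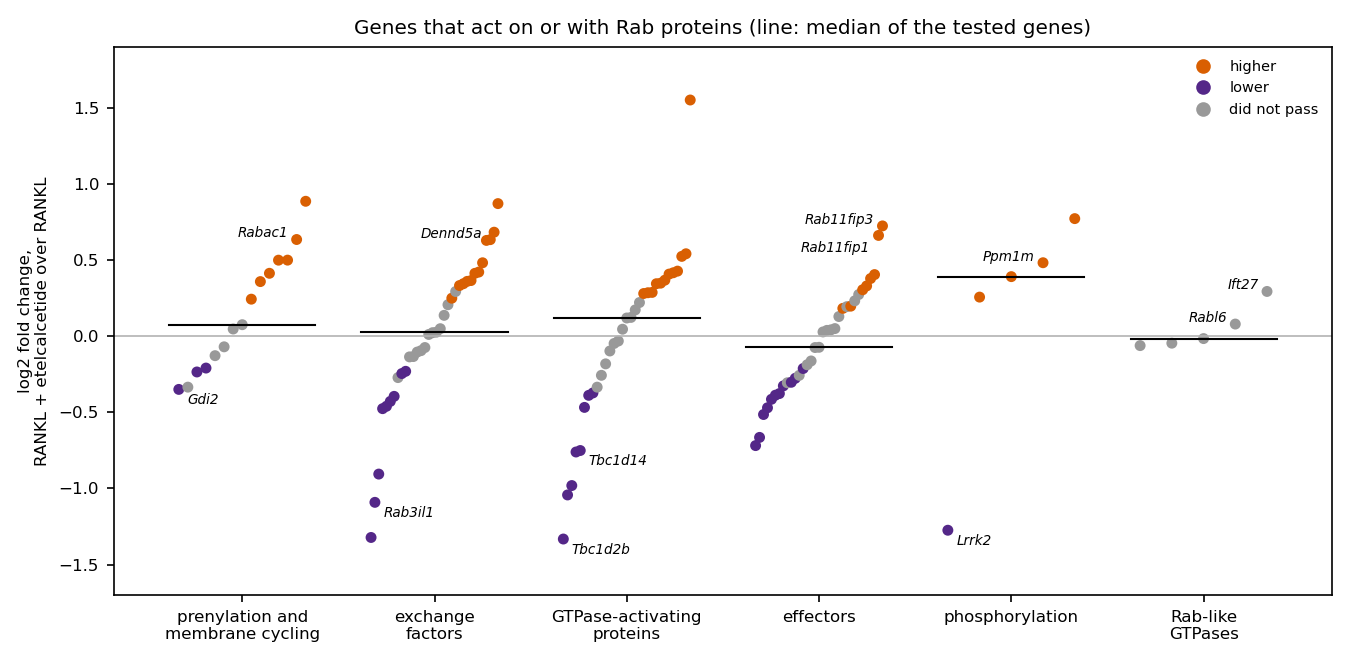
Log2 fold change, RANKL plus etelcalcetide over RANKL, of the tested genes in 6 lists of Rab regulators, effectors and relatives. Points are sorted within each list and coloured by test result. Lines are list medians and labels mark some of the genes, of which Ift27 and Rabl6 did not pass. Called genes lie on both sides of 0 in the first 5 lists, and Lrrk2 at -1.27 is the single lower gene of the phosphorylation list.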

How the data were processed

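The unit deposited by the authors was FPKM, in 1 table for each library, over 55536 Ensembl gene IDs. HISAT2 2.1.0, Trimmomatic 0.38, featureCounts 1.6.0 and DESeq2 1.22.1 are named, without a role, in the submitters' processing notes, next to CASAVA, FastQC and MultiQC. The notes also name build GRCh38, but all 55536 IDs matched mouse GENCODE M21 on GRCm38, which gave coordinates, exon lengths and coding sequences. RefSeq promoter windows are on GRCm38.p6. Library selection and strandedness are not given in the sources used here. Intervals of read ratios cover counting error only, and those of log2 fold changes come from limma.

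FPKM multiplied by merged exon length gave whole reads for 100% of values within 0.01 reads. Scaling factors were trimmed means of M values (30% of M and 5% of A trimmed). The log2 of scaled FPKM plus 0.1 was fitted with limma 3.58.1 (R 4.3.3, trended prior, no term but group). Genes needed 0.5 FPKM and 10 reads in at least 3 libraries. Printed FPKM values are as deposited unless called scaled. Read ratios are adjusted for depth and scaling, and log2 fold changes understate low genes. Ratios within a library were compared by exact permutation tests. Only the limma fit was tested on simulated reads, without scaling factors. The recovery of reads, the scaling, the read ratios and the permutation tests were not.

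The members and lists were chosen with earlier results of these data known, among them the low value of Rab15. Named genes were Rab15 and its 3 closest paralogues, called members with an absolute log2 fold change of at least 0.5, the 5 highest members, the osteoclast list, and up to 4 genes of each list with the smallest adjusted p; other members are named to account for all 59, and some genes the rule names are not reported here. Alternatives covered scaling, pseudocount, filter, test and each library left out, and leaving out overlapped genes was added after seeing the data.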

Additional observations from a re-analysis of the deposited data

How the results depend on the processing

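Between 23 and 29 Rab genes passed when 1 library was left out, and 23 without the members that overlap another gene over more than 20% of exon length, against 25; over all genes the range was 4687 to 6064, against 5894, and over the regulator lists 62 to 81, against 75. Of the 25 called Rab genes, 21 kept their call in each of the 14 planned settings that could test them; Rab10, Rab14, Rab27a and Rab35 are the exceptions given above, and none reversed. Rab15 could be tested in 11 of these, since leaving out a RANKL library took it under the filter. Without RANKL replicate 3, Rab2a, Rab4a, Rab5a, Rab6a and Rab34 also passed. Library totals alone shifted the median of all genes by 0.08 in log2, and the gap in summed Rab level was then 81.4 FPKM, against 25.7 FPKM. The difference in log2 ratio of Rab15 to Rab10 was -6.61 to -6.47 with a library left out, -9.43 on depth-adjusted reads, -7.04 against Rab8a and -7.08 against Rab13. Genes that did not pass changed sign under library totals alone (Ift22 0.016, Rab22a 0.015, Rab28 0.013, Rab31 0.052, Rab40c 0.040, Rabl3 0.030) and, with 1 library left out, Rab23 ranged between -0.018 (without etelcalcetide replicate 1) and 0.11, Rab40c between -0.086 and 0.053 (without RANKL replicate 3), and Rabl3 between -0.16 and 0.019 (without RANKL replicate 3); the cause was not tested. A limma voom fit on the recovered reads called 25 Rab genes and 6133 genes in all. The replicate block left 25 Rab genes called, 17 higher and 8 lower, and 5709 genes in all. Deviations of same-numbered libraries from their group means had r of 0.07, -0.02 and -0.03. Those of differently numbered libraries had r between -0.10 and 0.11, so this measure cannot tell whether the numbers pair the libraries. With no filter, 26 Rab genes passed, 18 higher and 8 lower, against 25, 17 and 8. No member tested in the main fit changed its call there, so the added higher call was among the 19 untested members. Which of them it was is not reported here. Wherever a filter was applied, the 19 untested members stayed under it. Among them Rab43 had 11 to 40 reads in each library and missed only the minimum of 0.5 FPKM.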
